A study of Mus musculus with 6 samples.

Results

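The genes described here move newly made procollagen out of the endoplasmic reticulum (ER), together with the transcription factors that drive that machinery. The 10 genes were chosen by name and matched to gene identifiers, and all 10 were found among the 56748 genes of the count tables. They were read in the tibia of female mice aged 12 weeks, in 3 libraries labelled Col1a1+/-, meaning heterozygous for the gene of the type I collagen alpha 1 chain, and 3 labelled wild type. The labels give neither the strain nor how the Col1a1 allele was made. The title of the series speaks of blocking TGF-beta in mice that model type I osteogenesis imperfecta, but the 6 samples carry no treatment label. RNA came from whole bones after the marrow had been flushed out, so a library holds every cell type left on or in the bone, and fewer cells of a type cannot be told apart from less RNA per cell.

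Procollagen is a rigid triple helix that is longer than an ordinary transport vesicle. It leaves the ER at exit sites where the COPII coat forms: SEC23 and SEC24 make the inner layer of the coat, and the TANGO1 proteins (encoded by Mia3, with its partner Mia2) bind cargo and coat and hold the growing carrier together. KDEL receptors return chaperones that escape to the Golgi, among them the collagen chaperone HSP47, and TRIC-B (Tmem38b) is a potassium channel that balances charge when calcium leaves the ER. CREB3L1 (OASIS) and CREB3L2 (BBF2H7) are membrane-anchored transcription factors that are cut free in the Golgi by the site-1 and site-2 proteases (Mbtps1 and Mbtps2) and switch on secretory genes in osteoblasts and chondrocytes. Human variants in CREB3L1, MBTPS2, SEC24D, KDELR2 and TMEM38B are known causes of osteogenesis imperfecta or closely related brittle bone disease.

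Library totals lay between 26.83 and 32.38 M reads. Levels are counts-per-million (CPM) after TMM scaling, which sets the bulk of genes level between libraries. A log2 fold change above 0 means a higher level in the Col1a1+/- libraries, called heterozygotes from here on. A gene was called when its adjusted p by edgeR's quasi-likelihood test was under 0.05 over all 18514 genes tested. Col1a1 itself stood at 61150, 52880 and 59600 CPM in heterozygous replicates 1, 2 and 3, and wild type read 36810, 61350 and 54800 CPM. Its ratio to Col1a2 reads was 0.775 to 0.836 in the first group and 1.25 to 1.32 in the second, so the level does not check the labels although the ratio parts them. The make-up of the libraries differed too: 24 skeletal muscle markers took 2.12% to 4.30% of counts in heterozygotes and 6.72% to 8.49% in wild type. The 14 osteoblast markers took 1.17% to 1.31% against 0.570% to 0.690%, and the 10 chondrocyte markers 0.730% to 0.975% against 0.348% to 0.468%. Osteoclast markers (0.758% to 0.961% against 0.518% to 0.629%) and osteocyte markers (0.183% to 0.244% against 0.112% to 0.169%) were also higher in heterozygotes without overlap. Neutrophil markers set wild-type replicate 1 apart, with 0.640% of its counts, where the other 5 libraries had 0.106% to 0.177%. No osteoblast or osteocyte marker was at 0 in any library.

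Of the 10 genes, 2 rose in heterozygotes (Creb3l1 and Kdelr2), 1 fell (Tmem38b) and 7 were not called. Over all genes tested, 1.43% were called higher and 2.91% lower. In 5 of the 10 all heterozygous libraries lay above all wild-type libraries (Creb3l1, Creb3l2, Sec24d, Kdelr2 and Kdelr3), an order that 14.0% of all genes showed. Tmem38b was the only one with the opposite order, which 14.5% of all genes showed. The median log2 fold change of the 10 was 0.27, beside -0.01 over all genes. DESeq2 called all 6 of these genes, 5 higher and 1 lower, while it called 4.22% of all genes higher and 7.92% lower. Without wild-type replicate 1, edgeR called 4 of the 10 higher (adding Sec24d and Kdelr3 but not Creb3l2) and 1 lower, with 3.12% and 6.15% of all genes. With wild-type replicate 2 or 3 or heterozygous replicate 1 or 3 left out edgeR called 0 of the 10. In each of these fits 6 of the 10, and 16.2% to 19.8% of all genes, had an unadjusted p under 0.05.

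**Figure D1:**
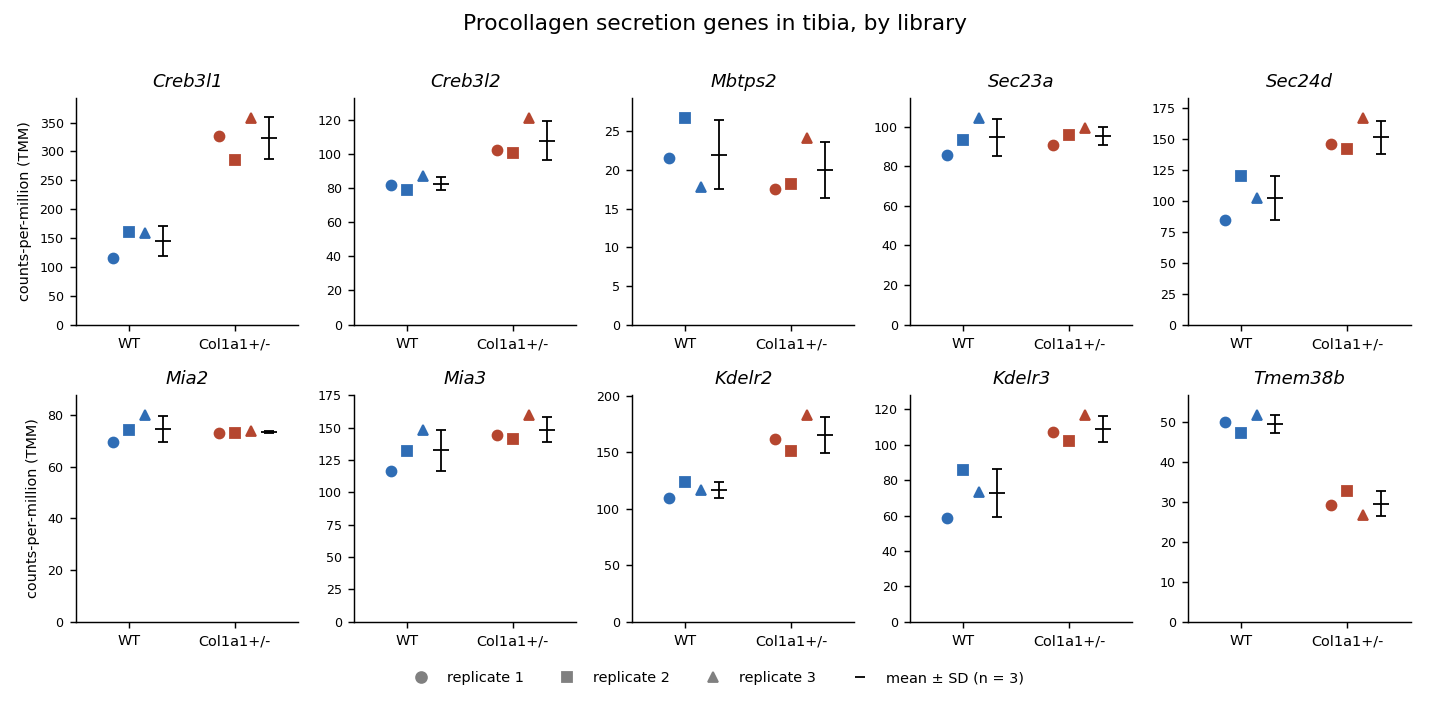
CPM of the 10 genes in each library (vertical axes from 0, symbols for replicates, bars for the mean ± SD of 3 libraries). The genotypes do not overlap for Creb3l1, Creb3l2, Sec24d, Kdelr2, Kdelr3 and Tmem38b, and they overlap for Mbtps2, Sec23a, Mia2 and Mia3.

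Creb3l1, the factor named OASIS that is needed for normal type I collagen output by osteoblasts, had the largest fold change of the 10. Creb3l1 (ENSMUSG00000027230; chromosome 2, 91812673 to 91854847, minus strand, GRCm39) read 326.0, 285.1 and 357.5 CPM in heterozygous replicates 1, 2 and 3, and 114.6, 161.2 and 158.2 CPM in wild-type bone. Every heterozygous library was above every wild-type library, and the lowest of all was wild-type replicate 1. Heterozygotes averaged 322.9 ± 36.3 CPM and wild type 144.7 ± 26.1 CPM (SD, n = 3 each), a 2.23-fold difference that ranked at percentile 98.95 of log2 fold changes over all genes (log2 fold change 1.16, SE 0.16, adjusted p = 0.0212 by edgeR). Without 1 library the log2 fold change lay between 1.05 and 1.24, and the call was lost without heterozygous replicate 1 (adjusted p = 0.119 by edgeR), heterozygous replicate 3 (0.0656), wild-type replicate 2 (0.0633) or wild-type replicate 3 (0.0649).

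Creb3l2, the paralog best known from cartilage, where it drives Sec23a, was not called. Creb3l2 (ENSMUSG00000038648; chromosome 6, 37304190 to 37419081, minus strand) read 102.2, 100.4 and 120.8 CPM in heterozygotes and 81.93, 79.05 and 86.74 CPM in wild-type bone. The groups did not overlap (log2 fold change 0.39, SE 0.11, adjusted p = 0.0751 by edgeR). Reads of Creb3l1 per read of Creb3l2, a ratio that no scaling of libraries can move, were 3.19, 2.84 and 2.96 in heterozygotes and 1.40, 2.04 and 1.82 in wild type. The ratio was thus higher in all 3 heterozygous libraries, 1.73-fold on average (exact permutation p = 0.1, the smallest possible with 3 against 3; 0.16 adjusted over the 8 ratios compared here). Per kilobase of exon, Creb3l1 made up 72.50% ± 1.84 of the reads of the 5 CREB3 family genes in heterozygotes and 58.57% ± 1.92 in wild type, whereas Creb3l2 made up 8.66% ± 0.391 and 12.19% ± 2.02 (SD, n = 3 each). Of the exon length of Creb3, another of the 5, 20.8% is shared with Tln1 and Gba2 on the opposite strand. Reads on several genes were not counted and strand was not used, so Creb3 is a lower estimate and these shares are upper ones.

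The site-2 protease, which makes the second cut that frees these factors inside the membrane, did not follow them. Mbtps2 (ENSMUSG00000046873; chromosome X, 156318367 to 156381711, minus strand) was the lowest of the 10 per kilobase of exon and read 17.53, 18.24 and 24.15 CPM in heterozygotes and 21.51, 26.67 and 17.74 CPM in wild-type bone. The libraries of the genotypes interleaved (log2 fold change -0.14, SE 0.18, adjusted p = 0.711 by edgeR). Of its exon length 28.4% is shared with Yy2 on the same strand, and reads that overlap both genes were not counted, so its level is a lower estimate. Mbtps1, the site-1 protease that cuts first, read 118.5, 127.8 and 144.2 CPM in heterozygotes and 98.42, 102.2 and 105.1 CPM in wild-type bone (log2 fold change 0.35, SE 0.11, adjusted p = 0.0902 by edgeR). Reads of Mbtps2 per read of Mbtps1 were 0.148, 0.143 and 0.168 in heterozygotes and 0.219, 0.261 and 0.169 in wild type. The highest heterozygous library and the lowest wild-type library lay side by side, so the lack of overlap was by a narrow margin (exact permutation p = 0.1; 0.16 adjusted over the 8 ratios).

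Of the inner COPII coat, the cargo-binding subunit Sec24d stood higher in heterozygotes and the subunit Sec23a did not. Sec24d (ENSMUSG00000039234; chromosome 3, 123061104 to 123159290, plus strand) read 146.0, 141.7 and 166.9 CPM in heterozygotes and 84.81, 120.0 and 102.7 CPM in wild-type bone. The groups did not overlap, and the difference fell just short of a call (a ratio of 1.48, or 0.56 as log2 with SE 0.14; adjusted p = 0.0566 by edgeR). Sec23a (ENSMUSG00000020986; chromosome 12, 59005169 to 59058803, minus strand), the subunit whose loss is known to stall procollagen in the ER, read 90.77, 95.89 and 99.40 CPM in heterozygotes and 85.93, 93.58 and 104.3 CPM in wild-type bone. Its lowest and highest libraries were both wild type, and its log2 fold change was 0.01 (SE 0.11, adjusted p = 0.968 by edgeR). Of the exon length of Sec23a 8.9% is shared with Gm17529 on the opposite strand, and the counting did not use strand.

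Measured against their paralogs, the pair again differed. Reads of Sec24d per read of Sec24c, an isoform made in most tissues, were 1.03, 1.10 and 1.18 in heterozygotes and 0.646, 0.958 and 0.790 in wild type, 1.40-fold higher without overlap (exact permutation p = 0.1; 0.16 adjusted over the 8 ratios). Per kilobase of exon, Sec24d made up 41.65% ± 1.18 of the reads of the 4 Sec24 genes in heterozygotes and 34.09% ± 4.10 in wild-type bone (SD, n = 3 each). Sec24c led the family in all 3 wild-type libraries and Sec24d in all 3 heterozygous libraries. Reads of Sec23a per read of Sec23b overlapped, at 1.80 to 2.08 in heterozygotes and 1.88 to 2.85 in wild type (exact permutation p = 0.4; 0.4 adjusted over the 8 ratios).

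The promoters of Sec24d, Sec23a and Kdelr3 share an 8-base string, TGACGTGG, that resembles the site known for the CREB3 family and XBP1. The RefSeq promoter table (build GRCm38.p6, 250 bases before to 50 after each annotated start) held 9 promoters for 7 of the 10 genes. Creb3l1, Kdelr2 and Tmem38b had no entry. The sequences are shown because the string they share resembles the site of the family of Creb3l1, which rose. They run 5′ to 3′ on the strand of the gene, as the 250 bases before the start for Sec24d (chr3:123267246-123267495, plus strand) and Kdelr3 (chr15:79516158-79516407, plus strand) and as 30 bases across the start for Sec23a (chr12:59011993-59012022, minus strand), all GRCm38.p6. Capitals mark TGACGTGG or, in Kdelr3, its reverse complement.
Sec24d: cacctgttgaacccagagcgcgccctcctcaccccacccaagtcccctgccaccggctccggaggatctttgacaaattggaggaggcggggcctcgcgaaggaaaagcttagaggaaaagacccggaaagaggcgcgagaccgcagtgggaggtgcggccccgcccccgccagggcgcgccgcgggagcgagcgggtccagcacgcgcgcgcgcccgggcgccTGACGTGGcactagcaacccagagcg
Kdelr3: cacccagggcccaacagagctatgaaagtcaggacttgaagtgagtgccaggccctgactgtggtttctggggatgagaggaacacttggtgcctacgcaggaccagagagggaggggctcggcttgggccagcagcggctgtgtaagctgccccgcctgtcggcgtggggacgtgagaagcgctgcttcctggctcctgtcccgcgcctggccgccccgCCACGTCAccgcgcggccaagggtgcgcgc
Sec23a: ctcctccccttTGACGTGGcagaggcggca

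The string begins 26 bases before the start of Sec24d, 30 bases before that of Kdelr3 and 6 bases after that of Sec23a. Searched on both strands, it occurred in 3 of the 9 promoters, of 3 of the 7 genes, and in 0.676% of all 32851 promoters of 300 bases. Its shorter core CCACGT, which lies inside it on the opposite strand, occurred in 4 of the 9 promoters (of the same 3 genes and Mia2) and in 8.31% of all promoters. The cyclic AMP response element TGACGTCA (1.79% of all promoters) and the ER stress element (0.119%), which is CCAAT and CCACG with 9 bases of any kind between them, occurred in none of the 9 promoters. The promoters of Sec24d, Kdelr3 and Sec23a are 72%, 69.7% and 64.7% G or C, and the shares over all promoters were not matched for base content. The genes were also chosen as machinery that these factors drive, so the shares do not measure an enrichment. A match describes these letters only, and of the 3 genes with TGACGTGG, Sec24d and Kdelr3 had groups that did not overlap while Sec23a had a log2 fold change of 0.01. Among 120 other tested genes with TGACGTGG in a promoter, 5 were called higher (4.17%) and 7 lower (5.83%), and the median was 0.02 on the log2 scale. Of all 12274 other tested genes with a promoter in the table, 1.56% were called higher and 3.42% lower, with a median of -0.01. The 5 called higher were Enpp1, Sec16b, Slc22a17, Timp1 and Txndc5, and the 7 called lower were Ankrd9, Hk2, Htatsf1, Nfe2l1, Nrd1, Ppargc1a and Zfp651, all named after their values were seen.

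The TANGO1 genes, which tie procollagen to the coat, were close to level. Mia3, which encodes TANGO1 itself (ENSMUSG00000056050; chromosome 1, 183107682 to 183150894, minus strand), read 144.1, 141.3 and 159.3 CPM in heterozygotes and 116.6, 131.9 and 148.4 CPM in wild-type bone. The groups overlapped through wild-type replicate 3 (log2 fold change 0.16, SE 0.12, adjusted p = 0.464 by edgeR). Mia2 (ENSMUSG00000021000; chromosome 12, 59142585 to 59238369, plus strand), whose products include the TANGO1 partners TALI and cTAGE5, had the smallest spread of the 10 in heterozygotes, at 73.03, 72.89 and 73.62 CPM. Wild type read 69.50, 74.13 and 79.74 CPM and spanned these values (log2 fold change -0.02, SE 0.09, adjusted p = 0.913 by edgeR). Counts per gene do not separate the long and short forms of either gene.

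Although neither gene was called, reads of Mia3 per read of Mia2 were higher in each heterozygous library. The ratios were 1.97, 1.94 and 2.16 in heterozygotes and 1.68, 1.78 and 1.86 in wild type, a difference of 1.14-fold (exact permutation p = 0.1; 0.16 adjusted over the 8 ratios). Per kilobase of exon Mia3 was 3.18 times Mia2 in heterozygotes and 2.78 times in wild type, with all annotated exons of each gene as its length.

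The KDEL receptors fetch escaped ER proteins back from the Golgi. On the TMM scale all 3 were higher in heterozygotes without overlap, as 14.0% of all genes were, and 1 of the 3 was called. With libraries scaled on osteoblast markers none of the 3 had a positive log2 fold change. Kdelr2 (-0.44) and Kdelr3 (-0.34) lay above the median of all genes on that scale (-0.96). Kdelr2 (ENSMUSG00000079111; chromosome 5, 143389593 to 143407656, plus strand) read 161.8, 150.6 and 182.4 CPM in heterozygotes and 109.3, 124.0 and 116.3 CPM in wild-type bone. It rose 1.42-fold without overlap (log2 fold change 0.50, SE 0.11, adjusted p = 0.0458 by edgeR). Kdelr3 (ENSMUSG00000010830; chromosome 15, 79400612 to 79411940, plus strand) read 107.5, 102.1 and 116.6 CPM in heterozygotes and 58.83, 86.01 and 73.23 CPM in wild-type bone. Its groups did not overlap either, and its fold of 1.5 was larger than that of Kdelr2 with a wider spread in wild type, short of a call (log2 fold change 0.58, SE 0.14, adjusted p = 0.0547 by edgeR). Kdelr1, the third receptor, read 132.0, 136.0 and 151.7 CPM in heterozygotes and 85.52, 119.1 and 116.8 CPM in wild-type bone (log2 fold change 0.39, SE 0.14, adjusted p = 0.147 by edgeR). The call of Kdelr2 was lost without heterozygous replicate 1 or 3 or wild-type replicate 2 or 3 (adjusted p from 0.0932 to 0.147 by edgeR). It was also lost with the erythroid and neutrophil score as a covariate (0.41 as log2, adjusted p = 0.117 by edgeR). With the muscle score as a covariate Kdelr2 stood at 0.32 as log2 (adjusted p = 0.723 by edgeR). In that fit edgeR called 0 genes, and the muscle shares of the genotypes did not overlap, so the loss does not single out Kdelr2.

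The balance among the receptors moved little. Reads of Kdelr3 per read of Kdelr1 were 0.814, 0.751 and 0.769 in heterozygotes and 0.688, 0.722 and 0.627 in wild type, 1.15-fold higher without overlap (exact permutation p = 0.1; 0.16 adjusted over the 8 ratios). Reads of Kdelr2 per read of Kdelr1 overlapped, at 1.11 to 1.23 against 0.995 to 1.28 (exact permutation p = 0.4; 0.4 adjusted over the 8 ratios). Per kilobase of exon, Kdelr2 made up 37.24% ± 0.887 of the reads of the 3 receptors in heterozygotes and 37.21% ± 2.97 in wild-type bone (SD, n = 3 each).

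**Figure D2:**
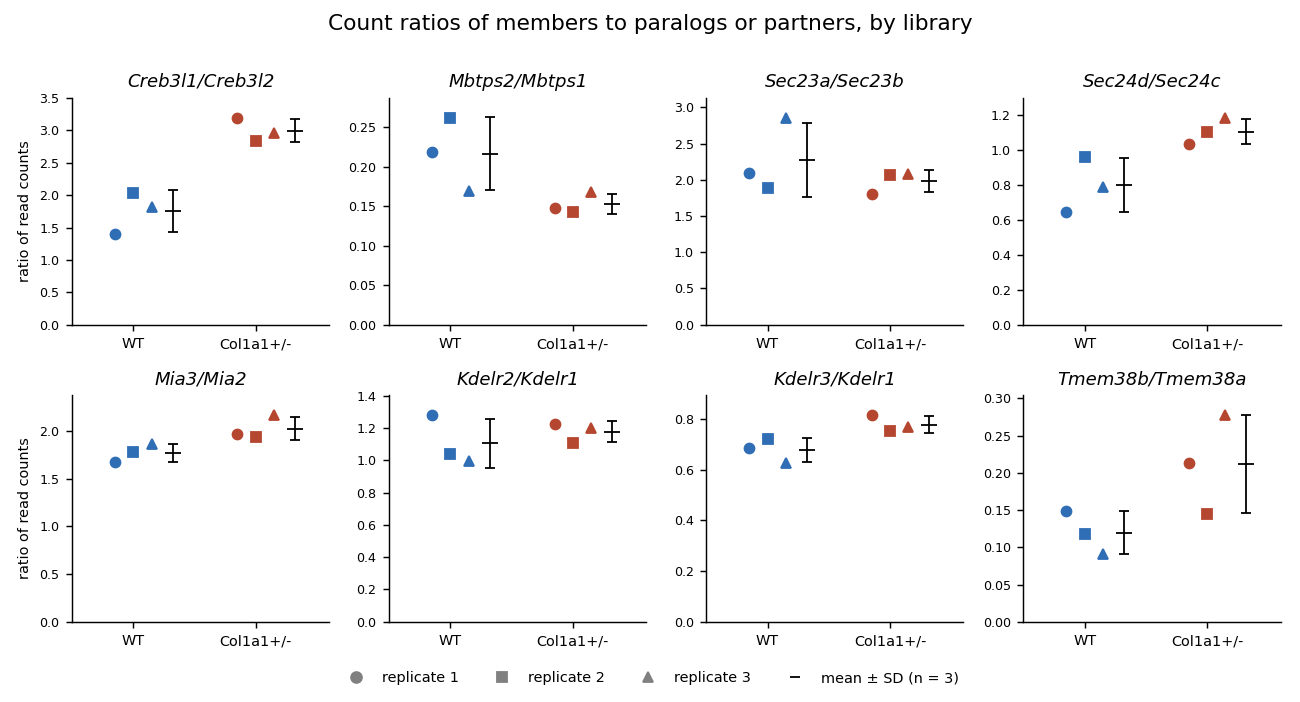
Ratio of read counts of each gene to a paralog or partner in each library (vertical axes from 0, symbols for replicates, bars for the mean ± SD of 3 libraries). Creb3l1/Creb3l2, Sec24d/Sec24c, Mia3/Mia2 and Kdelr3/Kdelr1 are higher in every heterozygous library, Mbtps2/Mbtps1 is lower by a narrow margin, and Sec23a/Sec23b, Kdelr2/Kdelr1 and Tmem38b/Tmem38a overlap.

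Tmem38b, whose loss in people causes a recessive form of osteogenesis imperfecta, was the only one of the 10 that fell. Tmem38b (ENSMUSG00000028420; chromosome 4, 53826045 to 53862019, plus strand) read 29.31, 32.81 and 26.73 CPM in heterozygotes and 50, 47.28 and 51.72 CPM in wild-type bone. The groups stood well apart, with means of 29.62 ± 3.05 and 49.67 ± 2.24 CPM (SD, n = 3 each), 1.68-fold lower in heterozygotes (-0.75 as log2, SE 0.11; adjusted p = 0.0216 by edgeR). Without 1 library the log2 fold change lay between -0.82 and -0.65, and the call was lost without the same 4 libraries (adjusted p from 0.0633 to 0.122 by edgeR).

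Its paralog Tmem38a, which encodes TRIC-A, the form of excitable tissue such as skeletal muscle, was lower by more. Tmem38a read 137.8, 226.1 and 96.51 CPM in heterozygotes and 336.3, 399.6 and 565.0 CPM in wild-type bone (log2 fold change -1.50, SE 0.33, adjusted p = 0.0543 by edgeR). In heterozygous replicates 1, 2 and 3 the muscle markers took 2.34%, 4.30% and 2.12% of counts, and Tmem38b, Tmem38a and Ryr1 kept that order of libraries. In wild type the muscle share was 6.72%, 6.83% and 8.49%, an order that Tmem38a and Ryr1 kept and Tmem38b did not. Of the 24 muscle markers, 11 fell, as 2.91% of all genes did, and the others stood lower (median -1.44 on the log2 scale). Ryr1 is one of the 24. With the muscle score as a covariate the log2 fold change of Tmem38b was -0.48 (SE 0.20, adjusted p = 0.606), in a fit in which edgeR called 0 genes and 1490 had an unadjusted p under 0.05. Reads of Tmem38b per read of Tmem38a were 0.213, 0.145 and 0.277 in heterozygotes and 0.149, 0.118 and 0.0915 in wild type, overlapping through heterozygous replicate 2 (exact permutation p = 0.2; 0.267 adjusted over the 8 ratios).

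**Figure D3:**
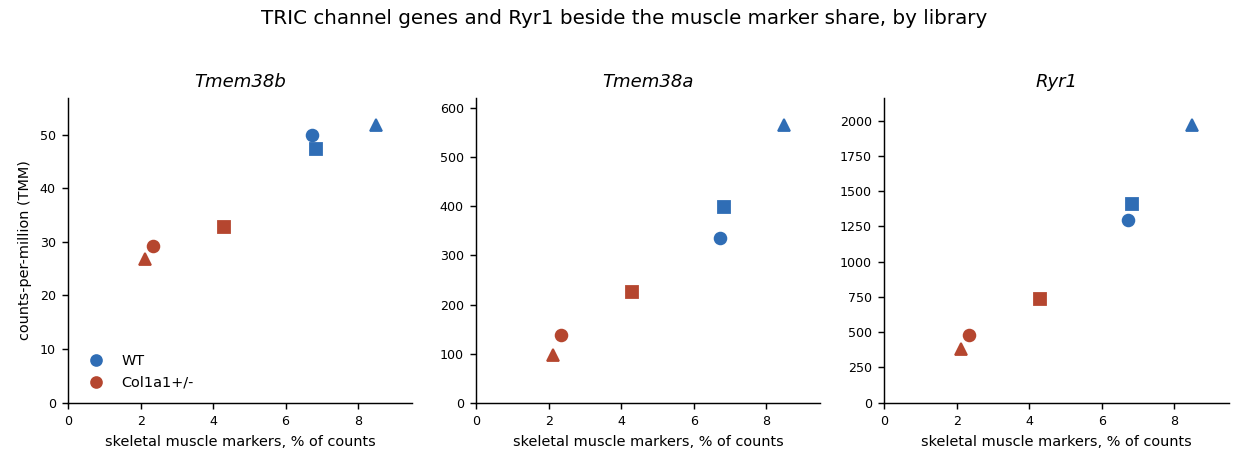
CPM of Tmem38b, Tmem38a and Ryr1 (vertical axes from 0) against the percentage of counts taken by 24 skeletal muscle markers, 1 point per library, with symbols for replicates (circle 1, square 2, triangle 3). Heterozygous libraries lie at 2.12% to 4.30% and wild-type libraries at 6.72% to 8.49% on the horizontal axis, with lower values of all 3 genes in heterozygotes; Ryr1 is itself 1 of the 24 markers.

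Levels per kilobase of exon compare different genes only roughly. The length is that of all annotated exons of a gene, not of the forms it makes, and exons shared with other genes lose reads. By this measure Creb3l1 was the most abundant of the 10 in heterozygotes, at 124.0 ± 13.9 CPM per kb, followed by Kdelr2 (90.17 ± 8.82) and Kdelr3 (77.08 ± 5.19) (SD, n = 3 each). In wild type Kdelr2 led at 63.71 ± 4.01 CPM per kb, before Creb3l1 (55.58 ± 10) and Kdelr3 (51.52 ± 9.64). That order held in all 3 libraries, but the means of neighbours differed by 8.14 and 4.06 CPM per kb, less than the larger SD. Next came Sec24d, Mia3 and Sec23a, at 23.96 ± 2.13, 20.70 ± 1.35 and 19.70 ± 0.897 CPM per kb in heterozygotes. Their order in wild type was the opposite, at 19.55 ± 1.91 for Sec23a, 18.48 ± 2.23 for Mia3 and 16.20 ± 2.78 for Sec24d. There the neighbouring means differed by less than the larger of their SDs, but Sec23a was above Mia3 and Sec24d in all 3 libraries. In heterozygotes Sec24d was above both others in all 3, and Mia3 and Sec23a did not differ beyond the larger SD. Lower levels, in CPM per kb, were those of Creb3l2 (14.80 ± 1.55 and 11.34 ± 0.533 in heterozygotes and wild type), Tmem38b (7.78 ± 0.802 and 13.05 ± 0.588), Mia2 (6.51 ± 0.0345 and 6.62 ± 0.457) and Mbtps2 (1.98 ± 0.360 and 2.17 ± 0.444). Tmem38b stood above Creb3l2 in wild type and below it in heterozygotes.

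With libraries scaled on osteoblast markers, which were themselves higher in heterozygotes, 6 of the 10 genes changed direction. Of the 14 osteoblast markers 9 rose on the TMM scale, as 1.43% of all genes did, and the others stood higher (median 0.71 on the log2 scale). The scale is the sum of the reads of the 14, so markers with more reads weigh more than that median shows. Ibsp had the most reads of the 14 in every library (71034 to 172154), and its log2 fold change was 1.09. Per 1000 reads of those markers, Creb3l1 had 27.5, 24.4 and 28.7 reads in heterozygotes and 22.2, 21.7 and 24.7 in wild type. The groups overlapped by a narrow margin, with a log2 difference of 0.23 (exact permutation p = 0.2). The other 9 genes were all lower per osteoblast read in every heterozygous library, from Kdelr3 (9.06, 8.76 and 9.36 against 11.4, 11.6 and 11.4) to Tmem38b (2.47, 2.81 and 2.15 against 9.67, 6.35 and 8.07). The share of all genes with that order per osteoblast read was not counted. With libraries scaled on these markers 75.5% of all genes were called lower, so the order does not set the 9 apart.

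On that scale the median of all genes moved from -0.01 to -0.96, 75.5% of all genes were called lower, and 7 of the 10 genes were among them. The 7 were Creb3l2, Mbtps2, Sec23a, Mia2, Mia3, Kdelr2 and Tmem38b. Creb3l1 was still the highest of the 10, at 0.23, and Tmem38b the lowest, at -1.70, while Mia2 at -0.97 and Sec23a at -0.93 lay close to the shifted median. Scaled on 12 osteocyte markers the median of all genes was -0.57, Creb3l1 stood at 0.62 (SE 0.29, adjusted p = 0.098 by edgeR), and Tmem38b was the only gene of the 10 that was called, at -1.30. That scale is a sum of reads as well, and Gja1 (0.49 as log2 on the TMM scale) had the most reads of the 12 in every library. Creb3l1 stayed above 0 and Tmem38b below 0 under each of the 5 scalings tried (TMM, DESeq2 size factors, library totals, osteocyte and osteoblast markers). With the muscle score as a covariate, Creb3l1 stood at 1.12 (SE 0.32, adjusted p = 0.606 by edgeR), in a fit in which edgeR called 0 genes.

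**Figure D4:**
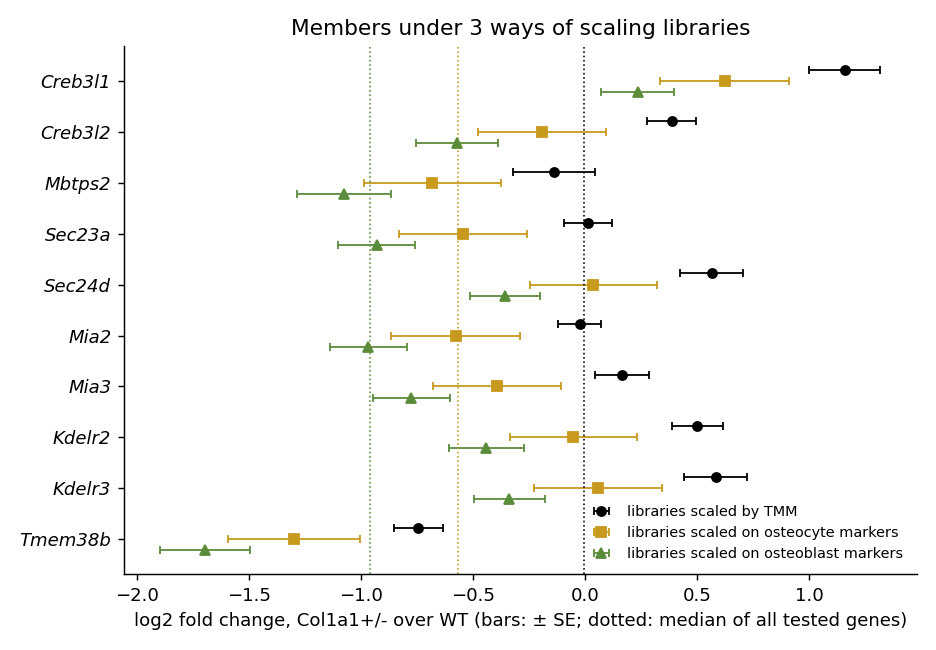
Log2 fold change of the 10 genes (horizontal axis, bars ± SE) with libraries scaled by TMM, on osteocyte markers or on osteoblast markers; dotted lines mark the median of all tested genes on each scale (-0.01, -0.57 and -0.96). Creb3l1 lies right of 0 and Tmem38b left of 0 on all 3 scales, while Creb3l2, Sec23a, Sec24d, Mia3, Kdelr2 and Kdelr3 change side on the osteoblast scale.

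The wider secretory pathway, read from 6 further lists of genes, had positive medians on the TMM scale apart from calcium handling, while on the osteoblast scale all 6 medians were negative, from -0.67 to -1.25. Of 13 genes of the COPI coat and retrieval, which carries cargo back to the ER, edgeR called 0, 6 had an unadjusted p under 0.05 (22.8% of all genes did) and DESeq2 called 1 higher. All 13 had a positive log2 fold change on the TMM scale (median 0.28), as 49.1% of all genes had, and 0 of 13 on the osteoblast scale. The smallest p values belonged to Arf4, a small GTPase that recruits the coat (log2 fold change 0.51, adjusted p = 0.0602 by edgeR), and to the coat subunit Copb1 (0.33, adjusted p = 0.0965 by edgeR). Of 32 cargo receptors and tethers between ER and Golgi, 1 rose and 0 fell (11 had an unadjusted p under 0.05 by edgeR, beside 22.8% of all genes, and DESeq2 called 3 higher and 0 lower), with a median of 0.18. Beside the calls in both lists, edgeR called 1.43% of all genes higher and 2.91% lower, and DESeq2 called 4.22% and 7.92%. The one that rose was Tmed3, a p24 cargo receptor, at 156.6, 146.2 and 153.2 CPM in heterozygotes and 97.08, 103.8 and 100 CPM in wild-type bone (log2 fold change 0.60, SE 0.10, adjusted p = 0.0238 by edgeR). The cargo receptor Lman1 (ERGIC-53) stood at 0.45 (adjusted p = 0.071), Tmed4 at -0.34 (adjusted p = 0.11) and Tmed5 at -0.33 (adjusted p = 0.245).

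Of 19 other COPII coat and exit site genes, 1 rose and 2 fell, with a median of 0.14. DESeq2 called 3 higher and 3 lower, and 8 had an unadjusted p under 0.05 by edgeR. Over all genes edgeR called 1.43% higher and 2.91% lower, DESeq2 called 4.22% and 7.92%, and 22.8% had an unadjusted p under 0.05 by edgeR. Sec16b, an exit site scaffold, rose from 36.99 ± 3.39 to 53.80 ± 4.32 CPM (SD, n = 3 each; 0.54 as log2; adjusted p = 0.0379 by edgeR), and the outer coat subunit Sec31a stood at 0.48 (adjusted p = 0.0762). Cul3, which encodes the ubiquitin ligase scaffold that works with KLHL12 to enlarge COPII carriers, fell from 138.4 ± 8.41 to 88.23 ± 6.33 CPM (-0.65 as log2; adjusted p = 0.0239 by edgeR). Klhl12 itself read 27.76 ± 0.580 CPM in heterozygotes and 31.04 ± 1.43 CPM in wild-type bone (log2 fold change -0.16, adjusted p = 0.378). Sec31b, the minor outer coat paralog, fell from 13.69 ± 4.63 to 6.30 ± 0.521 CPM (-1.12 as log2; adjusted p = 0.0458 by edgeR). The muscle markers were lower in the same libraries as Cul3 and Sec31b, and their part in these 2 differences was not tested.

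Of 8 other factors, those anchored in membranes and Xbp1, neither edgeR nor DESeq2 called any, and 1 had an unadjusted p under 0.05 by edgeR (median 0.14): Creb3l3 stood at 0.59 (adjusted p = 0.115 by edgeR), Atf6b at 0.21 (adjusted p = 0.273), Srebf1 at -0.11 (adjusted p = 0.635) and Creb3l4, at about 1 CPM, at -0.61 (adjusted p = 0.55). Xbp1, whose product is a main driver of ER expansion, read 182.7 ± 10.8 CPM in heterozygotes and 165.3 ± 3.51 CPM in wild-type bone (SD, n = 3 each; log2 fold change 0.14, adjusted p = 0.447 by edgeR). Among the 4 site protease and escort genes edgeR called 0, 1 had an unadjusted p under 0.05 and DESeq2 called 1 higher (median 0.23), with Insig1 at 0.33 (adjusted p = 0.285 by edgeR) and Scap at -0.05 (adjusted p = 0.793). Of 15 genes of ER calcium handling, the setting in which TRIC-B works, 14 were tested, 1 rose and 2 fell, and the median was -0.26. DESeq2 called 1 higher and 6 lower, and 8 had an unadjusted p under 0.05 by edgeR. The shares over all genes were 1.43% higher and 2.91% lower by edgeR, 4.22% and 7.92% by DESeq2, and 22.8% for the unadjusted p. The inositol trisphosphate receptor gene Itpr3 rose (log2 fold change 0.52, adjusted p = 0.0431 by edgeR), the ryanodine receptor gene Ryr1 (-1.55, adjusted p = 0.0279) and the calcium sensor gene Stim1 (-0.92, adjusted p = 0.0323) fell, and Calr, the calcium-binding chaperone, stood at 0.38 (adjusted p = 0.233). Ryr1 and Atp2a1 of this list are muscle markers as well.

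**Figure D5:**
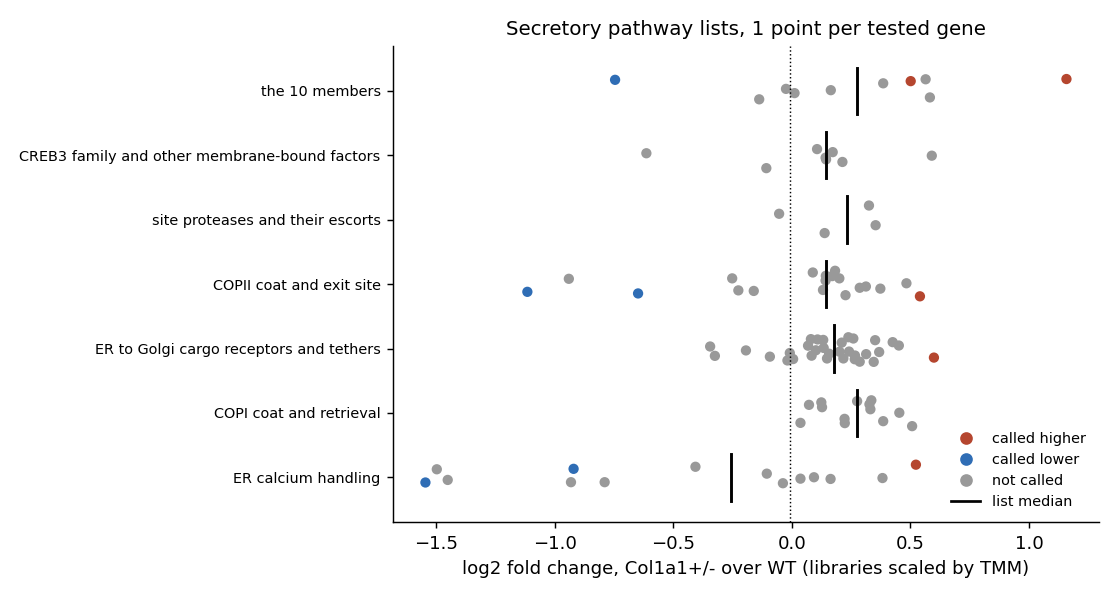
Log2 fold change (horizontal axis, TMM scale) of each tested gene of the 10 and of 6 pathway lists, with black bars at list medians, red for genes called higher, blue for called lower, and a dotted line at the median of all genes (-0.01). Medians of 5 lists lie between 0.14 and 0.28, and that of ER calcium handling is -0.26.

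The genes whose level varied most like that of Creb3l1 over the 6 libraries were looked for among 11923 named genes that averaged 5 CPM or more, by the root mean square difference of log2 CPM after each gene was centred on its mean. The nearest 5 were Pcsk6 (0.114), Gramd2 (0.119), the type V collagen gene Col5a2 (0.124), P3h4 (0.135), which encodes a partner of collagen lysyl hydroxylase, and the procollagen C-proteinase enhancer gene Pcolce (0.136). Their log2 fold changes lay between 0.93 and 1.06. For Tmem38b the nearest were Slain2 (0.0319), Mef2c (0.0443), Nampt (0.0516), Capn1 (0.0528) and Setd7 (0.0542), with log2 fold changes between -0.79 and -0.66. These are descriptions over 6 libraries that share 1 contrast.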

How the data were processed

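Poly-A RNA of 6 tibia samples was sequenced, per the labels' protocols. The deposited files hold raw counts of reads per gene, made with featureCounts 2.0.3 on exons of Ensembl release 107 (GRCm39), per the file headers. The submitters' processing notes name HISAT2 2.2.1, SAMtools 1.20 and Trimmomatic 0.39. The recorded command counts each mate of a pair, uses no strand and drops reads on several places or genes. Symbols were looked up by Ensembl identifier in a table of gene names, which held 52073 of the 56748 identifiers. Genes were kept by filterByExpr, scaled by TMM and tested with edgeR 4.0.16 (R 4.3.3; quasi-likelihood, robust, genotype only, Benjamini-Hochberg over 18514 genes), a script checked on simulated data. DESeq2 1.42.0, limma-voom 3.58.1, other scalings, covariates, the filter and each library left out were alternatives. SE is the absolute log2 fold change over the square root of F. Ratios and shares had exact two-sided permutation tests. The labels do not say that samples are separate animals, so p-values measure the spread between these samples. Pairs of libraries of 1 genotype differed by 26.23 to 90.26 times counting variance, so none was a copy. The 10 genes and all lists were chosen with earlier results of these data known. Named genes are the 10, their ratio partners, 2 per direction of smallest p in each list and the 5 nearest of Creb3l1 and Tmem38b; Klhl12, Xbp1 and the motif genes were added after values were seen.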

Additional observations from a re-analysis of the deposited data

How the results depend on the processing

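The 10 genes had 512 or more counts in every library. Genes called numbered 803. They were 2248 with DESeq2, 1327 with library totals, 13992 scaled on osteoblast markers, 3804 scaled on osteocyte markers, 1472 without a filter, 0 with the muscle covariate by edgeR and 0 to 1766 with 1 library left out (0 without Col1a1+/- replicate 1 or wild-type replicate 3, with 3275 and 3239 at an unadjusted p under 0.05; 8 without wild-type replicate 2; 44 without Col1a1+/- replicate 3). Of the 10 genes, 2 were called higher; in the order of those settings 5, 4, 0, 0, 4 and 0 were, 1 with the erythroid and neutrophil covariate, and 0 to 4 with 1 library left out. The number lower was 1, and it was 7 on the osteoblast scale, 0 with the muscle covariate and 0 to 1 with 1 library left out. The labels do not say whether the same replicate number pairs samples. Deviations of samples with the same number correlated at 0.107, 0.041 and -0.122, and those with different numbers at -0.198 to 0.194. These values show no pairing by number but cannot exclude one. With the replicate block 126 genes were called, with 1 of the 10 higher (Creb3l1) and 0 lower (adjusted p = 0.0929 for Kdelr2 and 0.0556 for Tmem38b by edgeR). For the 8 ratios the block left the same differences, and 0.25 is the smallest p that 3 pairs allow. No ratio changed direction with a library left out. Log2 fold changes changed sign on the osteoblast scale for Creb3l2 (-0.57), Sec23a (-0.93), Sec24d (-0.36), Mia3 (-0.78), Kdelr2 (-0.44) and Kdelr3 (-0.34), and on the osteocyte scale for Creb3l2 (-0.19), Sec23a (-0.55), Mia3 (-0.39) and Kdelr2 (-0.054). Genes near 0 turned elsewhere: Sec23a (-0.13) and Mia3 (-0.008) with the erythroid and neutrophil covariate, and Mia2 with library totals (0.063) and the muscle covariate (0.072). With 1 library left out, Mbtps2 ranged from -0.274 to 0.025, Sec23a from -0.023 to 0.087 and Mia2 from -0.041 to 0.027. The cause of these changes was not tested. The difference in marker share, in percentage points, likewise crossed 0 for erythroid (-0.00437 to 0.00464), plasma and B cell (-0.000526 to 0.0036) and adipocyte markers (-0.000219 to 0.00513).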
